A study of Mus musculus with 9 samples.

Results

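The metalloproteases and their tissue inhibitors of cultured mouse heart fibroblasts were followed across 3 adenovirus groups. The members were the rows of the deposited expression table whose gene symbol was that of a matrix metalloproteinase (Mmp), a tissue inhibitor of metalloproteinases (Timp1 to Timp4), an Adam, an Adamts or an Adamts-like gene. The rule found 85 genes of the 56953 in the table: 23 MMP, 4 TIMP, 34 ADAM, 19 ADAMTS and 5 ADAMTSL genes. All cells came from hearts of adult male C57BL/6N mice labelled wildtype, so no group carried a mutation. The Ad-JP2 group received an adenovirus for JP2 (junctophilin-2, encoded by Jph2, which links the plasma membrane with the endoplasmic reticulum). The Ad-shJP2 group received an adenovirus with a short hairpin RNA against JP2, and the Ad-GFP group, the control, an adenovirus for green fluorescent protein. Each group had 3 polyA RNA sequencing libraries. In all groups the virus was given at 1000000 plaque-forming units per mL, and RNA was taken 72 h after infection. The age in weeks, the number of animals behind a culture, the promoter of each insert and the species of the JP2 sequence are not given in the labels used here. Nothing in the labels says that the 3 libraries of a group came from separate cultures, so the p-values measure the spread between these libraries, which may be technical.

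The proteases of the MMP, ADAM and ADAMTS families share a zinc-dependent catalytic fold and act outside the cell or at its surface. MMPs cut collagens, gelatins, proteoglycans and other proteases and are made as inactive zymogens. ADAMs are membrane proteins that release the outer parts of growth factors, cytokine receptors and adhesion proteins, whereas ADAMTS enzymes are secreted and cut proteoglycans such as versican and the propeptides of fibrillar collagens. ADAMTSL proteins resemble ADAMTS enzymes without the protease domain, and TIMPs block the active site of MMPs and of some ADAM and ADAMTS enzymes. In the heart, fibroblasts are a main source of these genes' products, which turn over the collagen network between muscle cells.

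A run of 10 MMP genes lay side by side on chromosome 9, in the order Mmp13, Mmp12, Mmp1b, Mmp3, Mmp1a, Mmp10, Mmp8, Mmp27, Mmp20 and Mmp7 in the RefSeq gene order of GRCm38.p6. RefSeq promoter windows of that build, which run from 250 bases before to 50 bases after the annotated start, were available for 54 of the 85 members. The AP-1 motif, the letters TGANTCA, which read the same on both strands, was present in 7.81% of all 32851 windows and in 13 of the 59 windows of members. In the chromosome 9 run, 8 of 10 genes had a window with the motif, against 5 of 44 other members with a window. The run's windows with the motif had 37.7% (Mmp10) to 46.7% (Mmp20) GC, and the windows of the other members 35.3% (Adam29) to 80.0% (Mmp24). The part of GC content in these counts was not tested. The stretches of 4 of these genes are shown because these neighbours moved in opposite directions in the Ad-shJP2 libraries: Mmp10 and Mmp3 were higher there and Mmp13 and Mmp12 were lower, both of the lower calls being lost, and that of Mmp12 turned in sign, after correction for GC content and length. Each runs from 110 bases before the start to 10 bases from it, on the plus strand, with the AP-1 letters in capitals.
Mmp10, GRCm38.p6 chr9:7502232-7502351, + strand: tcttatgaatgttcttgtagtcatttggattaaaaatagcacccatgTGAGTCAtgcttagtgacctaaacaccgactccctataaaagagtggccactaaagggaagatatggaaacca
Mmp3, GRCm38.p6 chr9:7445712-7445831, + strand: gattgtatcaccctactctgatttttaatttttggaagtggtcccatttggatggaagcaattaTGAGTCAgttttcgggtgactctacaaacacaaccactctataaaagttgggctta
Mmp13, GRCm38.p6 chr9:7272404-7272523, + strand: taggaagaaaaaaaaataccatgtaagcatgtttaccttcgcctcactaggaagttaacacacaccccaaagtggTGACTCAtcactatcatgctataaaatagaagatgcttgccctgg
Mmp12, GRCm38.p6 chr9:7347264-7347383, + strand: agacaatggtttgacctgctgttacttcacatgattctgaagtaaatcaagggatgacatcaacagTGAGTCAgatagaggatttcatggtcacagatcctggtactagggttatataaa
The motif began 63 bases before the annotated start of Mmp10, 46 before that of Mmp3, 35 before that of Mmp13 and 44 before that of Mmp12, whose other annotated window held none. The letters TATAAA, searched on both strands, were in 13.6% of all windows and in all 4 windows shown, where they did not overlap the capitals. Relative to the annotated start they began at -29 in Mmp10, -7 in Mmp3 and -16 in Mmp13. In Mmp12 they began at 4, past the annotated start. No other motif was searched. The windows of Mmp14, Timp1, Timp2, Timp3, Adam10 and Adamts1, which are described further on, held no TGANTCA, which says only that these letters were absent from these 300 bases. A match is a description of letters and not a bound site.

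Values were TPM, a share of all transcripts that is scaled for gene length and can be compared between genes. Depth was estimated from the steps of low values at 36.3 to 39.8 M reads (M, 1e6) for Ad-JP2, 21.1 to 33.8 M for Ad-shJP2 and 40.2 to 45.5 M for Ad-GFP libraries. These depths are approximate, since most low values of all libraries but Ad-GFP replicate 3 did not lie near whole reads. At these depths 3 reads on a gene of 1000 bases correspond to 0.0876 to 0.177 TPM, a limit that covers counting error only. Jph2 averaged 688 ± 49.9 TPM in Ad-JP2, 120 ± 3.09 TPM in Ad-shJP2 and 129 ± 2.44 TPM in Ad-GFP libraries (SD, n = 3 each). Its log2 change was 2.40 in Ad-JP2 over Ad-GFP (limma, adjusted p = 3.1e-08). In Ad-shJP2 over Ad-GFP it was -0.11 and did not pass the test (limma, adjusted p = 0.072), so Ad-shJP2 names the label of those libraries and not a measured loss of Jph2 RNA. Of the fibroblast markers, all 8 were detected, with summed levels of 4253 to 4386 TPM in Ad-JP2, 2361 to 2430 TPM in Ad-shJP2 and 4018 to 4088 TPM in Ad-GFP libraries. The 10 macrophage and leukocyte markers were also present, at 2519 to 2560 TPM in Ad-JP2, 3187 to 3235 TPM in Ad-shJP2 and 2733 to 2772 TPM in Ad-GFP libraries, most of it from Lyz2 and C1qa. Summed cardiomyocyte markers lay between 19.7 and 30.3 TPM and endothelial markers between 28.7 and 39.6 TPM across libraries. In such bulk RNA, fewer cells of a type and less RNA per cell cannot be told apart.

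Many members were silent or near silent in these cells. Of the 85 members, 19 were listed at 0 TPM in all libraries, among them Timp4, Mmp7, Mmp20, Mmp21 and 13 ADAM genes of which many are known from testis. A further 26 were detected but did not reach 1 TPM in 3 libraries, the level required for testing. The highest of these were Adam3 at 1.64 TPM, Mmp27 at 1.08 TPM and Mmp1b at 1.01 TPM in their highest library, and Mmp9 (gelatinase B) reached 0.902 TPM. The 40 tested members were 13 MMP, 3 TIMP, 9 ADAM, 11 ADAMTS and 4 ADAMTSL genes. Adam9 was at 129, 129 and 126 TPM in Ad-GFP libraries while its chromosome 8 neighbours Adam18, Adam3, Adam5 and Adam32 never passed 1.64 TPM.

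Inhibitors outweighed proteases at the RNA level in all libraries. Summed TIMP RNA was 3352 ± 54.8 TPM in Ad-JP2, 3162 ± 44.2 TPM in Ad-shJP2 and 3344 ± 9.29 TPM in Ad-GFP libraries (mean ± SD, n = 3 each, as for the sums that follow). Summed MMP RNA was 798 ± 4.49 TPM in Ad-JP2, 509 ± 2.16 TPM in Ad-shJP2 and 738 ± 8.09 TPM in Ad-GFP libraries. Mmp14 alone averaged 486, 216 and 429 TPM in these groups, or 60.9%, 42.4% and 58.1% of the sum. The MMP sum and its ratio to other sums thus mostly follow that gene and not the class as a whole. The ratio of the TIMP sum to the MMP sum was therefore 4.2 ± 0.0843 in Ad-JP2, 6.22 ± 0.068 in Ad-shJP2 and 4.53 ± 0.0615 in Ad-GFP libraries, highest in each of the 3 Ad-shJP2 libraries. Summed ADAM RNA was 659 ± 16 TPM in Ad-JP2, 365 ± 4.15 TPM in Ad-shJP2 and 525 ± 4.3 TPM in Ad-GFP libraries. The ADAMTS sum, 283 ± 10.6 TPM in Ad-JP2, 106 ± 1.28 TPM in Ad-shJP2 and 204 ± 3.22 TPM in Ad-GFP libraries, differed most between groups as a ratio, at 2.68 for Ad-JP2 over Ad-shJP2, above the ratio of each other class. For MMP, ADAM and ADAMTS the 3 groups did not overlap, with Ad-JP2 highest and Ad-shJP2 lowest, while for ADAMTSL the libraries overlapped between 55.7 and 67.2 TPM. These sums are descriptions and were not tested. By median-of-ratios scaling, 8 of the log2 ratios of sums between groups moved by more than the added SDs of the groups compared. That scaling divides Ad-shJP2 libraries by 0.941 to 0.95 and the others by 1.02 to 1.04, so the order of the TIMP sums depends on it.

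**Figure D1:**
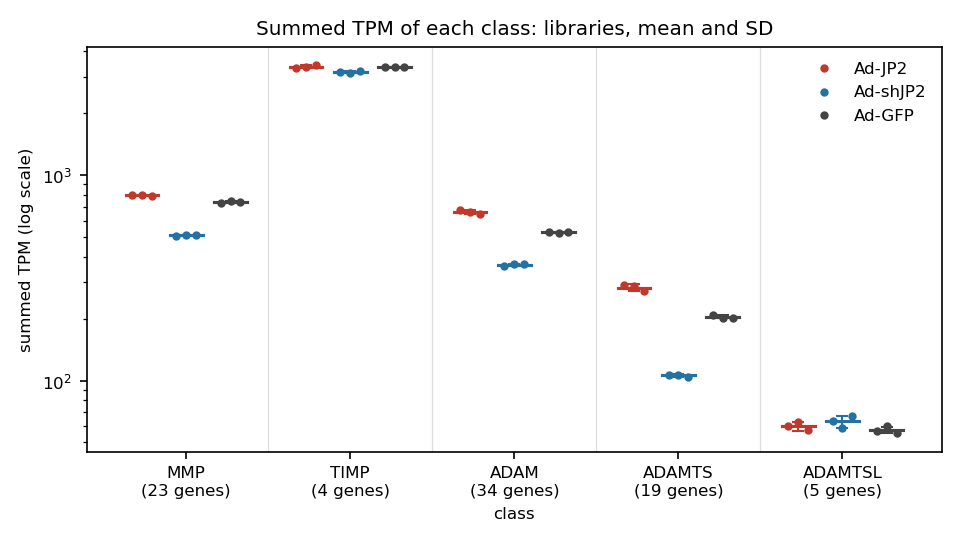
Summed TPM of each class on a log axis, with a point per library, a bar at the group mean and the SD as whiskers (n = 3). The MMP, ADAM and ADAMTS sums lie highest in Ad-JP2 and lowest in Ad-shJP2 libraries, and the TIMP sums lie between 3119 and 3410 TPM in all 9.

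In Ad-JP2 against Ad-GFP libraries, 10 of the 40 tested members rose and none fell. They were 5 ADAMTS genes (Adamts12, Adamts5, Adamts1, Adamts6 and Adamts9), 3 ADAM genes (Adam10, Adam9 and Adam17), Timp3 and Mmp14. Among all 14215 genes tested, 13.4% were called higher and 1.64% lower at an adjusted p under 0.05 (limma on log2(TPM + 1), Benjamini-Hochberg over all genes), so 10 of 40, or 25.0%, stood beside 13.4%. Without multiple-test adjustment, 15 members were under 0.05. The median log2 change of the 40 members, 0.01, was the same as the median of all genes, 0.01, and 30 members were not called. Adamts6 reached the level for testing only through its Ad-JP2 libraries, so it had to differ. When the GC content and length of the genes were taken out of each library, 7 members were higher and 7 lower, beside 6.5% and 7.72% of all genes. By median-of-ratios scaling the members split 10 higher to 1 lower, and by quantile normalization 8 to 2, beside 1807 to 399 and 1462 to 748 for all genes, against 1902 to 233 for TPM as deposited. Mmp14, Timp3, Adam9, Adam10, Adamts1, Adamts5 and Adamts12, 7 of the 10, were called higher in each of the 19 alternative analyses.

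In Ad-shJP2 against Ad-GFP libraries, 31 of the 40 members changed, 8 higher and 23 lower. The 23 that fell were 8 MMP, 2 TIMP, 5 ADAM, 7 ADAMTS genes and Adamtsl3, and the 8 that rose were Mmp10, Mmp17, Mmp3, Timp1, Adam8, Adam15, Adamts4 and Adamtsl5. Over all genes, 21.8% were called higher and 37.7% lower, beside 20.0% and 57.5% of the members. The median log2 change was -0.28 over the members and -0.11 over all genes. That general shift depended on scaling, being -0.02 by median-of-ratios and 0.02 by quantile normalization, so a log2 change of about 0.1 lies within it. By these scalings the members split 9 to 21 and 10 to 20, higher to lower, and all genes 4157 to 4333 and 4233 to 3849, against 3093 to 5353 for TPM as deposited. After correction for GC content and length, 12 members were higher and 16 lower, beside 29.2% and 27.1% of all genes. Of the 31 calls, 6 higher and 13 lower stood in every alternative that could test the gene.

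In Ad-JP2 against Ad-shJP2 libraries, 23 members were higher and 7 lower, where 40.3% of all genes were higher and 24.1% lower. The members' median log2 difference was 0.32 and that of all genes 0.10. Median-of-ratios scaling gave 22 higher and 9 lower members (4735 and 4634 of all genes), quantile normalization 19 and 14 (4026 and 5570), and the correction for GC content and length 14 and 16, beside 29.0% and 33.4% of all genes. For TPM as deposited all genes split 5731 to 3421. Among the members, the excess of higher over lower calls became smaller or was lost with each of these settings. As deposited, 57.5% of the members were higher, beside 40.3% of all genes. By median-of-ratios scaling this was 55.0% beside 33.3%, and by quantile normalization 47.5% beside 28.3%. After correction for GC content and length it was 35.0% beside 29.0%. The Ad-JP2 and Ad-shJP2 comparisons share their Ad-GFP libraries, so each member's own values are given side by side below.

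**Figure D2:**
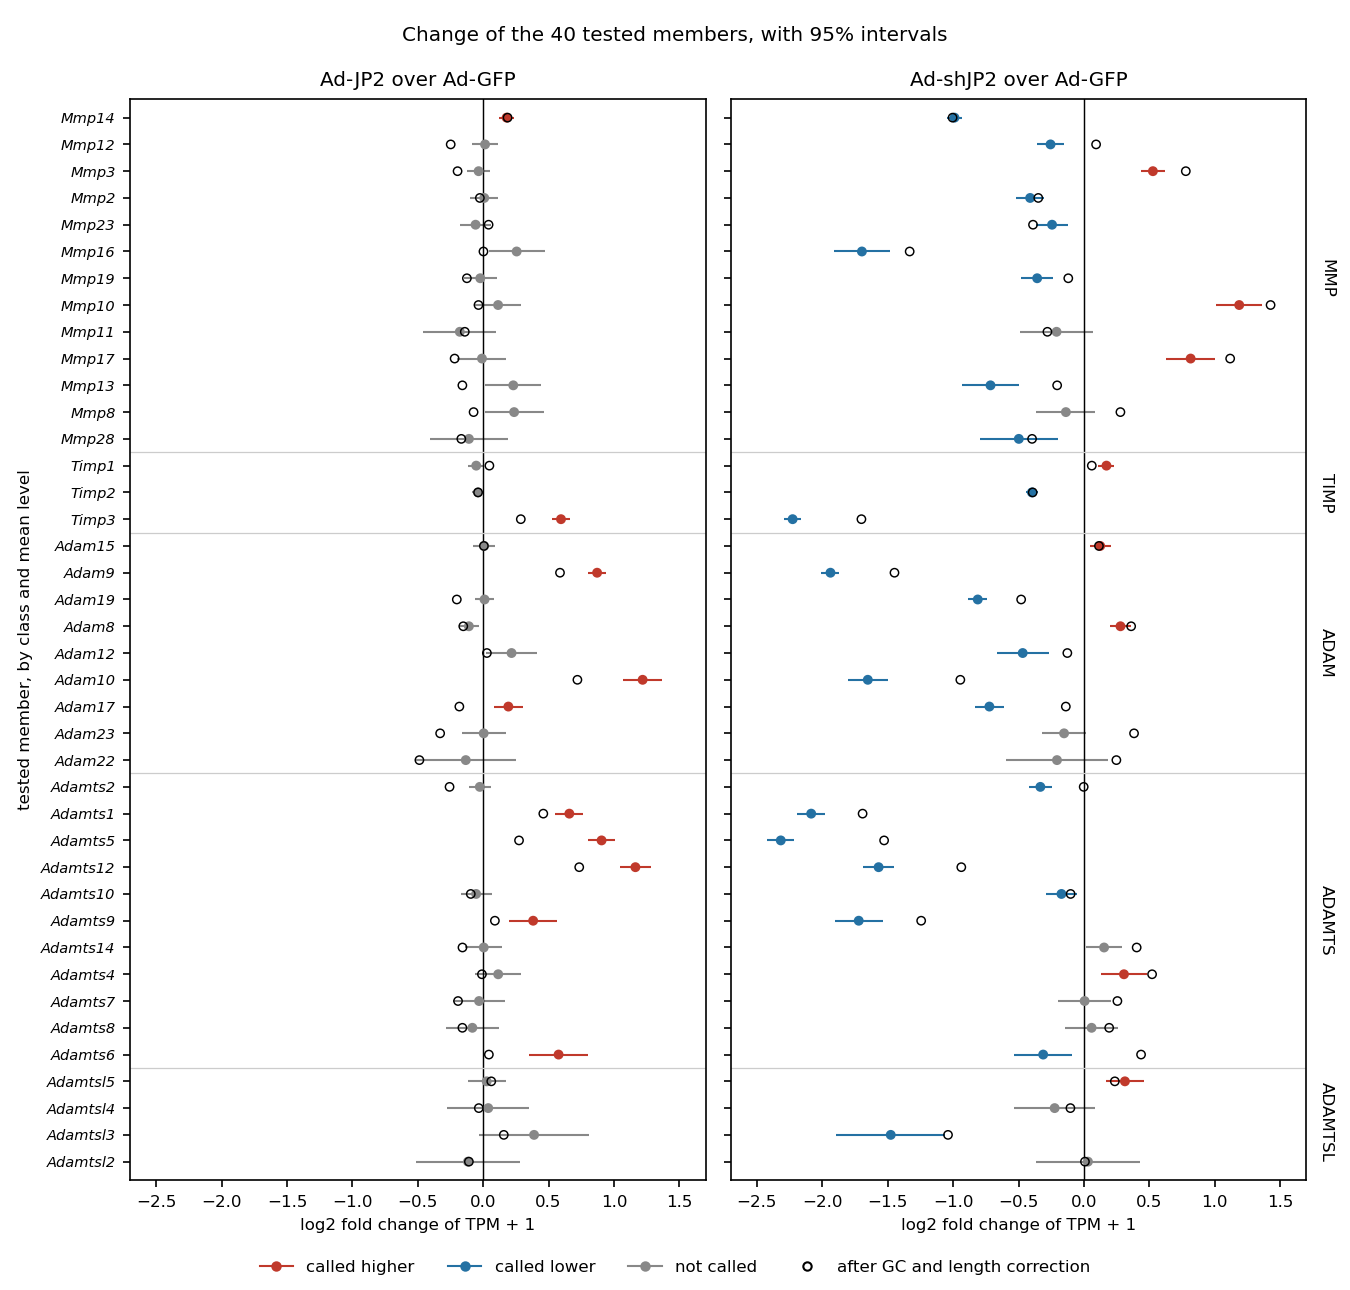
Log2 fold change of TPM + 1 for the 40 tested members, with 95% intervals, for Ad-JP2 over Ad-GFP on the left and Ad-shJP2 over Ad-GFP on the right. Filled points are coloured by call and open circles give the GC- and length-corrected value; Adam10 lies at 1.22 on the left and -1.65 on the right.

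Among the inhibitors, Timp3 moved most on the log2 scale, and the more abundant Timp1 and Timp2 moved less on that scale. Timp3, a matrix-bound inhibitor that also blocks ADAM17 and ADAMTS enzymes, was at 327, 328 and 329 TPM in Ad-JP2, 46.5, 46.5 and 43.7 TPM in Ad-shJP2 and 217, 219 and 215 TPM in Ad-GFP libraries. The 3 groups were far apart relative to their spread. Its log2 change was 0.59 in Ad-JP2 over Ad-GFP (adjusted p = 4.7e-06) and -2.23 in Ad-shJP2 over Ad-GFP (adjusted p = 4.2e-10), and after correction for GC content and length 0.29 and -1.70. Timp1, a soluble inhibitor and the most abundant member, was at 1896, 1917 and 2016 TPM in Ad-JP2, 2275, 2216 and 2328 TPM in Ad-shJP2 and 2031, 2008 and 2009 TPM in Ad-GFP libraries. It rose by 0.17 on the log2 scale in Ad-shJP2 over Ad-GFP (adjusted p = 0.00048), a call that the correction for GC content and length ended at 0.06 (adjusted p = 0.17). Timp2, which also serves as the bridge by which MMP14 activates proMMP2, was at 1079, 1099 and 1065 TPM in Ad-JP2, 837, 857 and 836 TPM in Ad-shJP2 and 1103, 1106 and 1126 TPM in Ad-GFP libraries. All Ad-shJP2 values lay below all others, and the log2 change over Ad-GFP was -0.40 (adjusted p = 3.3e-07), with -0.39 after correction. Ad-JP2 over Ad-GFP gave -0.05 for Timp1 and -0.04 for Timp2, neither of which passed. Timp1 thus made up 58 ± 1.0% of TIMP RNA in Ad-JP2, 71.9 ± 0.78% in Ad-shJP2 and 60.3 ± 0.316% in Ad-GFP libraries.

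Mmp14, the membrane-type collagenase that activates proMMP2, was the most abundant protease. It stood at 487, 495 and 476 TPM in Ad-JP2, 217, 212 and 218 TPM in Ad-shJP2 and 425, 438 and 425 TPM in Ad-GFP libraries, with no overlap between groups. The log2 change was 0.18 in Ad-JP2 over Ad-GFP (adjusted p = 0.001) and -0.99 in Ad-shJP2 over Ad-GFP (adjusted p = 6.3e-09), and the correction for GC content and length left both in place, at 0.19 and -1.0. Mmp2, gelatinase A and a substrate of MMP14, was at 55.9, 56.2 and 51.7 TPM in Ad-JP2, 41, 42 and 38.8 TPM in Ad-shJP2 and 55.2, 52.1 and 55.5 TPM in Ad-GFP libraries. It fell by 0.41 on the log2 scale in Ad-shJP2 over Ad-GFP (adjusted p = 6.8e-05), while Ad-JP2 over Ad-GFP gave 0.01 and did not pass. Mmp16, another transmembrane MMP, was at 27.2, 30.0 and 29.7 TPM in Ad-JP2, 5.95, 8.11 and 6.32 TPM in Ad-shJP2 and 23.9, 23.7 and 24.7 TPM in Ad-GFP libraries. Its log2 change in Ad-shJP2 over Ad-GFP was -1.70 (adjusted p = 6.8e-07), and in Ad-JP2 over Ad-GFP 0.26 (adjusted p = 0.12), which did not pass, though it did when Ad-shJP2 replicate 2 was left out of the fit (adjusted p = 0.014) or only these 2 groups were fitted (adjusted p = 0.015). Mmp17, which is held to the membrane by a glycolipid anchor, went the other way. Its levels were 4.82, 4.97 and 4.05 TPM in Ad-JP2, 8.41, 9.21 and 9.18 TPM in Ad-shJP2 and 4.44, 4.59 and 4.89 TPM in Ad-GFP libraries, a log2 change of 0.82 in Ad-shJP2 over Ad-GFP (adjusted p = 2.9e-05). The Ad-JP2 and Ad-GFP libraries of Mmp17 overlapped. Mmp23, Mmp19 and Mmp28 were called lower in Ad-shJP2 over Ad-GFP, at -0.24, -0.36 and -0.50 on the log2 scale, and Mmp11 (stromelysin-3) was not, at -0.21 (adjusted p = 0.17). Median-of-ratios scaling ended the call of Mmp23, quantile normalization that of Mmp28, and the correction for GC content and length that of Mmp19.

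The stromelysins Mmp3 and Mmp10, which cut proteoglycans, fibronectin and other pro-MMPs, were highest in Ad-shJP2 libraries. Mmp10 was at 8.38, 8.08 and 9.77 TPM in Ad-JP2, 19.9, 18.3 and 20.3 TPM in Ad-shJP2 and 8.17, 7.51 and 8.29 TPM in Ad-GFP libraries, and Mmp3 at 56.4, 54.9 and 60.1 TPM in Ad-JP2, 85.6, 83.5 and 85.4 TPM in Ad-shJP2 and 56.7, 59.5 and 59.5 TPM in Ad-GFP libraries. For each, all Ad-shJP2 libraries lay above the other 6, and the Ad-JP2 and Ad-GFP libraries overlapped. In Ad-shJP2 over Ad-GFP the log2 change was 1.19 for Mmp10 (adjusted p = 1.8e-06) and 0.53 for Mmp3 (adjusted p = 4.4e-06), and 1.43 and 0.78 after correction for GC content and length. Mmp3 did not pass in Ad-JP2 over Ad-GFP at -0.04, and was called lower there after that correction, at -0.20 (adjusted p = 0.01). The collagenase Mmp13, a close neighbour with the AP-1 letters shown above, was at 2.89, 3.27 and 3.08 TPM in Ad-JP2, 1.27, 0.923 and 1.18 TPM in Ad-shJP2 and 2.32, 2.48 and 2.64 TPM in Ad-GFP libraries. It fell by 0.71 on the log2 scale in Ad-shJP2 over Ad-GFP (adjusted p = 0.00017), and the correction ended the call at -0.20 (adjusted p = 0.076).

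Mmp12, known as macrophage elastase, was at 72.1, 69.6 and 77.6 TPM in Ad-JP2, 59.3, 59.4 and 62.6 TPM in Ad-shJP2 and 71.8, 73.8 and 71.4 TPM in Ad-GFP libraries. It fell by 0.26 on the log2 scale in Ad-shJP2 over Ad-GFP (adjusted p = 0.0009), but turned to 0.09 (adjusted p = 0.077) after correction for GC content and length. In Ad-JP2 over Ad-GFP it was 0.01 and did not pass, and the corrected value was -0.25 (adjusted p = 0.0042). Adam8, an ADAM best known from leukocytes, was at 43.8, 42.6 and 43.6 TPM in Ad-JP2, 55.7, 59 and 56.6 TPM in Ad-shJP2 and 46, 46.8 and 47.7 TPM in Ad-GFP libraries, a log2 change of 0.28 in Ad-shJP2 over Ad-GFP (adjusted p = 0.0001). In Ad-JP2 over Ad-GFP it gave -0.11 and did not pass (adjusted p = 0.067), but was called lower by median-of-ratios scaling at -0.13, by quantile normalization at -0.17 and after correction for GC content and length at -0.15. Of the macrophage and leukocyte markers, 6 of 10 were higher and 3 lower in Ad-shJP2 over Ad-GFP, with the summed ranges given above, and in Ad-JP2 over Ad-GFP 2 were higher and 2 lower. Fcgr1, Cd68 and C1qb were among those higher in Ad-shJP2 libraries, and Mrc1, Itgam and Ptprc were lower. Ptprc averaged 2.07 ± 0.227 TPM in Ad-JP2, 0.24 ± 0.0663 TPM in Ad-shJP2 and 0.592 ± 0.0685 TPM in Ad-GFP libraries, so it was tested only through its Ad-JP2 libraries, and its change in Ad-shJP2 over Ad-GFP was -0.36 as deposited but 0.38 (adjusted p = 0.0095) once GC content and length were taken out. The part of these cells in the levels of Mmp12, Adam8 and the other members was not tested. Neutrophil markers summed to at most 3.23 TPM, with S100a9 at 0 in all libraries, and Mmp8, the neutrophil collagenase, was called in neither comparison with Ad-GFP, except after correction, at 0.28 in Ad-shJP2 over Ad-GFP.

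Of the ADAM genes, the sheddases Adam10 and Adam9 separated the groups most. Adam10, which releases Notch receptors, cadherins and growth factors, was at 37.7, 37.2 and 38.1 TPM in Ad-JP2, 3.95, 4.86 and 4.09 TPM in Ad-shJP2 and 15.8, 15.2 and 15.9 TPM in Ad-GFP libraries. The mean level in Ad-JP2 libraries was 2.41 times that in Ad-GFP libraries, and the mean in Ad-shJP2 libraries 0.275 times it. The log2 change was 1.22 in Ad-JP2 over Ad-GFP (adjusted p = 8.3e-06) and -1.65 in Ad-shJP2 over Ad-GFP (adjusted p = 9.1e-08), and 0.72 and -0.94 after correction for GC content and length. Adam9, a widely expressed membrane protease, was at 238, 237 and 227 TPM in Ad-JP2, 32.9, 33.1 and 31.8 TPM in Ad-shJP2 and 129, 129 and 126 TPM in Ad-GFP libraries. The log2 change was 0.87 in Ad-JP2 over Ad-GFP (adjusted p = 9.2e-07) and -1.94 in Ad-shJP2 over Ad-GFP (adjusted p = 6.7e-10), with corrected values of 0.59 and -1.45. No library of a group overlapped another group for either gene.

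Adam17, the converting enzyme of tumour necrosis factor, showed smaller changes than its relative Adam10. It was at 17.1, 18 and 16.7 TPM in Ad-JP2, 8.93, 8.44 and 8.71 TPM in Ad-shJP2 and 15.2, 15 and 14.8 TPM in Ad-GFP libraries. Its call of 0.19 in Ad-JP2 over Ad-GFP (adjusted p = 0.029) was turned by the correction for GC content and length to -0.18 (adjusted p = 0.029). It was also lost by quantile normalization, at 0.11 (adjusted p = 0.17), and on leaving out Ad-GFP replicate 1, 2 or 3 or Ad-JP2 replicate 1 or 2, at 0.16 to 0.20 (adjusted p of 0.072 to 0.12). In Ad-shJP2 over Ad-GFP it fell by 0.72 (adjusted p = 2.2e-06), or by 0.14 after correction. Adam19, which can shed neuregulin, was at 148, 143 and 139 TPM in Ad-JP2, 81.7, 78.8 and 81.2 TPM in Ad-shJP2 and 145, 139 and 142 TPM in Ad-GFP libraries. It fell by 0.81 on the log2 scale in Ad-shJP2 over Ad-GFP (adjusted p = 7.5e-08), or by 0.48 after correction. In Ad-JP2 over Ad-GFP it was 0.01 and not called, and -0.20 after correction (adjusted p = 0.0022). Adam15, the most abundant ADAM by mean level, was at 148, 142 and 138 TPM in Ad-JP2, 149, 154 and 160.0 TPM in Ad-shJP2 and 138, 143 and 144 TPM in Ad-GFP libraries. Its small rise of 0.12 in Ad-shJP2 over Ad-GFP (adjusted p = 0.015) was lost without Ad-GFP replicate 1, at 0.11 (adjusted p = 0.055), or Ad-shJP2 replicate 3, at 0.10 (adjusted p = 0.054). Adam12 fell by 0.47 in Ad-shJP2 over Ad-GFP, a call that ended after correction at -0.13, and Adam22 and Adam23, which lack a working active site, were called in neither comparison, though Adam23 was after correction, at -0.33 in Ad-JP2 and 0.38 in Ad-shJP2 over Ad-GFP.

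**Figure D3:**
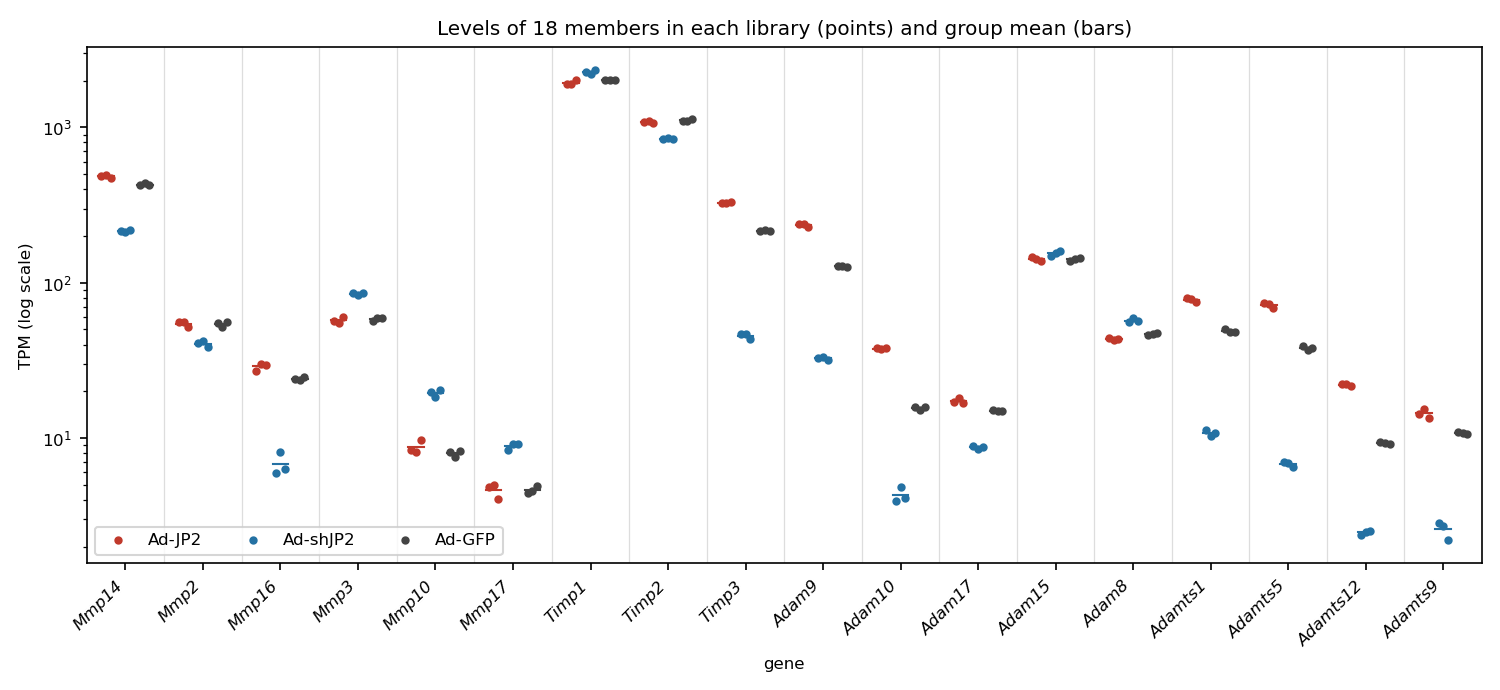
TPM of 18 members in each library on a log axis, with a point per library and a bar at the mean of each virus group (n = 3). Timp3, Adam9, Adam10, Adamts1, Adamts5, Adamts12 and Adamts9 form 3 separate bands, with Ad-JP2 on top and Ad-shJP2 at the bottom, while Mmp3, Mmp10, Mmp17 and Adam8 are highest in Ad-shJP2 libraries.

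Of the proteoglycan-cutting ADAMTS genes, Adamts5, Adamts1 and Adamts9 were highest in Ad-JP2 and lowest in Ad-shJP2 libraries, and Adamts4 was not. Adamts5, an aggrecanase and versicanase, was at 74.1, 72.8 and 69 TPM in Ad-JP2, 6.98, 6.94 and 6.53 TPM in Ad-shJP2 and 39, 36.9 and 38 TPM in Ad-GFP libraries. Adamts1, its neighbour on chromosome 16 and also a versicanase, was at 80.0, 79.1 and 74.7 TPM in Ad-JP2, 11.3, 10.2 and 10.8 TPM in Ad-shJP2 and 50.5, 48.5 and 48 TPM in Ad-GFP libraries. For both genes the 3 groups did not overlap. The log2 change of Adamts5 was 0.90 in Ad-JP2 over Ad-GFP (adjusted p = 4.9e-06) and -2.32 in Ad-shJP2 over Ad-GFP (adjusted p = 2.1e-09), and the correction for GC content and length brought these to 0.27 and -1.53. For Adamts1 the changes were 0.66 (adjusted p = 2.7e-05) in Ad-JP2 and -2.09 (adjusted p = 4e-09) in Ad-shJP2 over Ad-GFP, and 0.46 and -1.69 after correction. Adamts12, which can cut cartilage oligomeric matrix protein, was at 22.2, 22.3 and 21.7 TPM in Ad-JP2, 2.38, 2.5 and 2.52 TPM in Ad-shJP2 and 9.4, 9.27 and 9.2 TPM in Ad-GFP libraries. Its log2 change was 1.16 in Ad-JP2 over Ad-GFP (adjusted p = 3.3e-06) and -1.57 in Ad-shJP2 over Ad-GFP (adjusted p = 2.8e-08), with corrected values of 0.73 and -0.94.

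Adamts9, another versicanase, was at 14.3, 15.3 and 13.5 TPM in Ad-JP2, 2.85, 2.71 and 2.21 TPM in Ad-shJP2 and 11, 10.7 and 10.7 TPM in Ad-GFP libraries. Its fall of 1.72 in Ad-shJP2 over Ad-GFP (adjusted p = 2.4e-07) stood in every alternative. The call in Ad-JP2 over Ad-GFP, 0.38 (adjusted p = 0.012), was lost without Ad-JP2 replicate 2, at 0.34 (adjusted p = 0.057), by quantile normalization, at 0.28 (adjusted p = 0.051), and after correction for GC content and length, at 0.09 (adjusted p = 0.52). Adamts6, the lowest called member, averaged 1.36 ± 0.0663 TPM in Ad-JP2, 0.278 ± 0.0637 TPM in Ad-shJP2 and 0.586 ± 0.0813 TPM in Ad-GFP libraries, and its call in Ad-JP2 over Ad-GFP ended after correction, at 0.04. In Ad-shJP2 over Ad-GFP its log2 change of -0.31 turned to 0.44 (adjusted p = 0.0043) after correction, and it was lost by quantile normalization and without Ad-GFP replicate 1 or 3 or Ad-shJP2 replicate 3. The aggrecanase Adamts4 went the other way from Adamts1, Adamts5 and Adamts9 in Ad-shJP2 over Ad-GFP only. It did not pass in Ad-JP2 over Ad-GFP, at 0.11 (adjusted p = 0.43), or in Ad-JP2 over Ad-shJP2, at -0.19 (adjusted p = 0.057). Its levels were 4.79, 4.4 and 4.0 TPM in Ad-JP2, 4.98, 5.54 and 4.96 TPM in Ad-shJP2 and 3.94, 4.02 and 3.97 TPM in Ad-GFP libraries, a log2 change of 0.31 in Ad-shJP2 over Ad-GFP (adjusted p = 0.0082) and 0.52 after correction. Adamts2, the procollagen N-proteinase, was at 73.4, 72 and 67.1 TPM in Ad-JP2, 56.9, 58 and 56.1 TPM in Ad-shJP2 and 72.5, 72.4 and 71.4 TPM in Ad-GFP libraries. Its fall of 0.33 in Ad-shJP2 over Ad-GFP (adjusted p = 6e-05) was absent after correction, at 0.00, and the corrected change in Ad-JP2 over Ad-GFP was -0.26 (adjusted p = 0.0005) where the uncorrected one was -0.03. The second procollagen N-proteinase, Adamts14, gave 0.00 in Ad-JP2 and 0.15 in Ad-shJP2 over Ad-GFP, neither of which passed, and was called higher in Ad-shJP2 over Ad-GFP by median-of-ratios scaling, at 0.26, by quantile normalization, at 0.38, without a mean-variance trend (adjusted p = 0.027), and after correction, at 0.40. Adamts10, which binds fibrillin microfibrils, averaged 9.41 ± 0.264 TPM in Ad-JP2, 8.6 ± 0.207 TPM in Ad-shJP2 and 9.81 ± 0.188 TPM in Ad-GFP libraries. Its log2 change of -0.17 in Ad-shJP2 over Ad-GFP (adjusted p = 0.019) was close to the general shift and was lost under either scaling, after correction for GC content and length, and without Ad-GFP replicate 3 or Ad-shJP2 replicate 2. Adamts7 and Adamts8, each under 2 TPM, were called in neither comparison. In Ad-shJP2 over Ad-GFP, Adamts7 was called higher after correction, at 0.26, and Adamts8 by quantile normalization, at 0.28.

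The ADAMTSL genes, which encode matrix proteins without protease activity, did not move as a class. Adamtsl5 was at 44.4, 45.7 and 39.6 TPM in Ad-JP2, 52.3, 49.9 and 56.6 TPM in Ad-shJP2 and 43.7, 42.5 and 40.9 TPM in Ad-GFP libraries, and rose by 0.31 in Ad-shJP2 over Ad-GFP (adjusted p = 0.0024). Adamtsl3 was at 5.22, 6.81 and 6.58 TPM in Ad-JP2, 0.762, 1.55 and 0.692 TPM in Ad-shJP2 and 3.69, 5.52 and 4.37 TPM in Ad-GFP libraries, and fell by 1.48 in Ad-shJP2 over Ad-GFP (adjusted p = 0.00011). Its Ad-JP2 and Ad-GFP libraries overlapped, at a log2 change of 0.39 (adjusted p = 0.23). Adamtsl4, a partner of fibrillin, was at 9.0, 9.46 and 9.69 TPM in Ad-JP2, 9.07, 6.09 and 8.09 TPM in Ad-shJP2 and 8.19, 10.8 and 8.5 TPM in Ad-GFP libraries, which overlapped, and it was called in neither comparison.

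**Figure D4:**
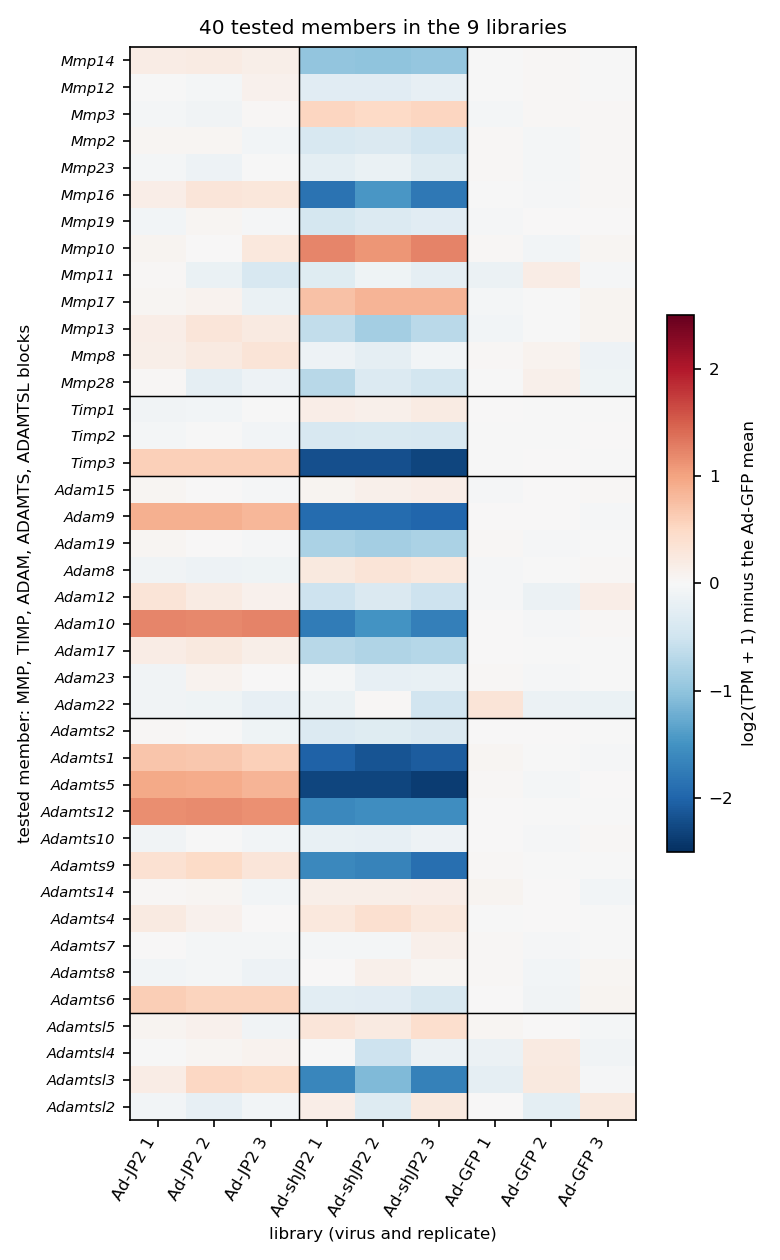
Log2(TPM + 1) of the 40 tested members in the 9 libraries, minus the mean of the 3 Ad-GFP libraries, in blocks by class. Replicates within a virus group resemble each other, and the Ad-shJP2 columns hold both the deepest falls (Adamts5, Timp3 and Adamts1) and the rise of Mmp10.

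Called and uncalled members differed in transcript make-up. The 10 members higher in Ad-JP2 over Ad-GFP had a median GC content of 46.7% and a median length of 4762 bases, against 54.6% and 2989 bases for the 30 members not called. The 1902 genes called higher among all genes had 44.7% and 3425 bases, where all genes tested had 50.7% and 1985 bases. Across the 40 members, Spearman's rho of the log2 change with GC content was -0.50 in Ad-JP2 over Ad-GFP and 0.40 in Ad-shJP2 over Ad-GFP. Across the 14025 tested genes with a GC value it was -0.41 and 0.34. With gene length rho was 0.47 in Ad-JP2 and -0.43 in Ad-shJP2 over Ad-GFP across the members, and 0.41 and -0.27 across all genes. These points share libraries and are genes, not replicates, so no p is given. Members low in GC content and long thus tended to be high in Ad-JP2 and low in Ad-shJP2 libraries, as such genes did in general. With GC content and length taken out, 7 of the 10 calls in Ad-JP2 over Ad-GFP remained, and 7 members were called lower where none had been. In Ad-shJP2 over Ad-GFP, 12 members were then higher and 16 lower, against 8 and 23 as deposited. The part of GC content and length in the changes was not tested.

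**Figure D5:**
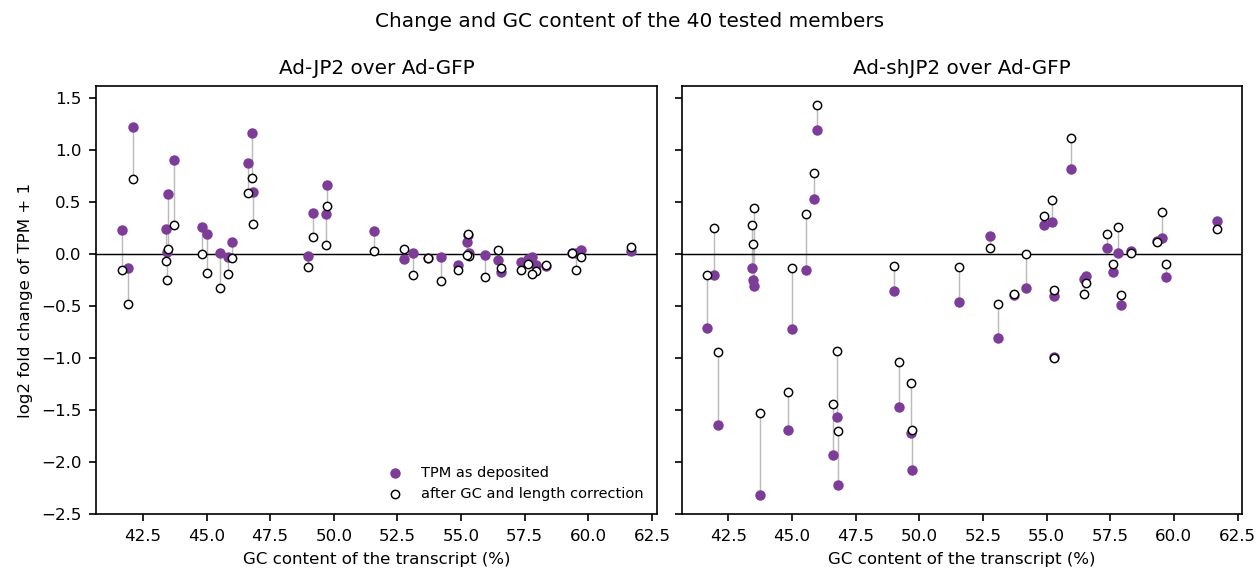
Log2 fold change of the 40 tested members against the GC content of their transcript, for Ad-JP2 over Ad-GFP on the left and Ad-shJP2 over Ad-GFP on the right. Filled points are TPM as deposited and open points are corrected for GC content and length; members under 50% GC carry the largest rises and falls, with Adamts5 at 0.90 as deposited and 0.27 after correction on the left.

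Partners of these enzymes were counted from lists of pathway genes. Of 14 tested maturation and trafficking partners, none was higher and 1 lower in Ad-JP2 over Ad-GFP, and 5 were higher and 6 lower in Ad-shJP2 over Ad-GFP. The shares of all genes were those given for the members, 13.4% higher and 1.64% lower in Ad-JP2 over Ad-GFP and 21.8% and 37.7% in Ad-shJP2 over Ad-GFP, and counts this small are descriptions. With GC content and length taken out, the partners counted 0 higher and 3 lower in Ad-JP2 over Ad-GFP and 7 and 4 in Ad-shJP2 over Ad-GFP. The largest changes among them in Ad-shJP2 libraries were those of the plasminogen activator system. Plaur, the urokinase receptor, averaged 89.2 ± 1.56 TPM in Ad-JP2, 223 ± 7.37 TPM in Ad-shJP2 and 88.5 ± 5.83 TPM in Ad-GFP libraries, a log2 change of 1.32 in Ad-shJP2 over Ad-GFP. Plau, urokinase itself, averaged 53.2 ± 1.41 TPM in Ad-JP2, 114 ± 1.5 TPM in Ad-shJP2 and 56.4 ± 0.526 TPM in Ad-GFP libraries, a log2 change of 1.01, whereas tissue plasminogen activator, Plat, fell by 0.97. Of 5 tested inhibitors and clearance receptors, 1 was higher and none lower in Ad-JP2 over Ad-GFP, and none was higher and 4 lower in Ad-shJP2 over Ad-GFP. After correction for GC content and length none was called in Ad-JP2 over Ad-GFP, and 1 was higher and 3 lower in Ad-shJP2 over Ad-GFP. Reck, a membrane-anchored MMP inhibitor, fell by 1.20, and Lrp1, the receptor that clears protease complexes, by 0.67 in Ad-shJP2 over Ad-GFP, and Lrp1 rose by 0.16 in Ad-JP2 over Ad-GFP, a call that correction for GC content and length ended at -0.13. Of 5 related metalloproteases outside the families, 2 rose in Ad-JP2 over Ad-GFP and 3 fell in Ad-shJP2 over Ad-GFP. They included Tll1, a tolloid protease, at 0.82 and -0.29, and Pappa, which cuts insulin-like growth factor binding proteins, at 0.82 and -0.65. Of these the Ad-shJP2 values were 0.22 and 0.04 after correction and not called. Corrected, the 5 related metalloproteases counted 2 higher and none lower in Ad-JP2 over Ad-GFP, and 1 higher and 1 lower in Ad-shJP2 over Ad-GFP.

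In Ad-shJP2 over Ad-GFP, ADAM-shed proteins changed in both directions, and ADAMTS and ADAMTSL substrates and partners mostly fell. Of 16 tested ADAM-shed proteins, 5 were higher and none lower in Ad-JP2 over Ad-GFP, and 3 were higher and 8 lower in Ad-shJP2 over Ad-GFP, that is 31.2% higher in Ad-JP2 over Ad-GFP beside 13.4% of all genes, and 18.8% higher and 8 of 16 lower in Ad-shJP2 over Ad-GFP beside 21.8% and 37.7% of all genes. Ereg, the growth factor epiregulin, gave 1.09 in Ad-JP2 and -1.66 in Ad-shJP2 over Ad-GFP, and 0.53 and -0.91 after correction. The cadherin Cdh2 gave 0.65 in Ad-JP2 and -0.67 in Ad-shJP2 over Ad-GFP, and 0.26 and -0.08, the last not called, after correction. Jag1, a Notch ligand, fell by 2.03 in Ad-shJP2 over Ad-GFP, where of its receptors Notch1 rose by 0.97 while Notch2 fell by 0.63 and Notch3 by 0.80. Of 13 tested ADAMTS and ADAMTSL substrates and partners, 3 were higher and 1 lower in Ad-JP2 over Ad-GFP, and 1 was higher and 12 lower in Ad-shJP2 over Ad-GFP. Versican, Vcan, gave 0.84 in Ad-JP2 and -0.58 in Ad-shJP2 over Ad-GFP, and after correction for GC content and length 0.67 and -0.23, of which the Ad-shJP2 value was no longer called. Fibrillin-1, Fbn1, fell by 1.03 and decorin, Dcn, by 1.01 in Ad-shJP2 over Ad-GFP, while the only one that rose, Tgfb1, gave 0.61. After correction for GC content and length, 2 ADAM-shed proteins were higher and 1 lower in Ad-JP2 over Ad-GFP. In Ad-shJP2 over Ad-GFP they counted 3 and 7. Of the substrates and partners 1 was then higher and 7 lower in Ad-JP2 over Ad-GFP, and 1 and 11 in Ad-shJP2 over Ad-GFP. The corrected shares of all genes were 6.5% and 7.72% in Ad-JP2 over Ad-GFP and 29.2% and 27.1% in Ad-shJP2 over Ad-GFP. In Ad-JP2 against Ad-shJP2 libraries, 10 ADAM-shed proteins were higher and 3 lower, and 11 substrates and partners were higher and 1 lower. Of all genes, 40.3% were higher there and 24.1% lower. Corrected, the ADAM-shed proteins counted 7 and 3 and the substrates and partners 8 and 2, beside 29.0% and 33.4% of all genes. Of the fibroblast markers, 5 of 8 were higher in Ad-JP2 over Ad-GFP (2 higher and 3 lower after correction). In Ad-shJP2 over Ad-GFP 8 of 8 were lower. Col1a1, Col1a2, Col3a1 and Dcn are also on the list of substrates and partners, so the marker counts are not separate from those of that list. The summed ranges of the markers are given above, and their part in the members' changes was not tested.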

How the data were processed

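The 9 polyA RNA-seq libraries were 3 per virus. The authors deposited TPM values per gene with gene lengths. Per the submitters' processing notes the tools were DRAGEN, Salmon and DESeq2 and the build GRCm39; their roles and versions were not stated. Stranded libraries were made with a TruSeq kit, per the labels' protocols. Because reference sequences here were of GRCm38, no gene coordinates are given beyond RefSeq promoter windows of GRCm38.p6.

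Genes with at least 1 TPM in at least 3 libraries were tested (14215 of 56953) on log2(TPM + 1), a scale that understates the change of low genes. limma 3.58.1 in R 4.3.3 fitted 3 group means to 9 libraries with a mean-variance trend. Tests were two-sided moderated tests, adjusted by Benjamini-Hochberg over all genes tested, with calls at an adjusted p under 0.05. An exact permutation test of 3 against 3 libraries cannot go below p = 0.1. The fit was tested on simulated data.

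The correction for GC content and length subtracted, in each library, natural splines with 5 degrees of freedom. GC content came from the GENCODE vM21 transcript nearest the deposited length, and 14025 of the tested genes had one. Depth was estimated from whole-read steps in low values and is approximate: 95.3% of low genes lay within 0.1 of a whole read in Ad-GFP replicate 3, and 33.8% to 41.5% in the others. Other alternatives were a pseudocount of 0.1, no filter, a minimum of 5 TPM, median-of-ratios and quantile scaling, the replicate number as a block, no trend, only the 2 groups compared, and each library left out.

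Members, gene lists and tests were chosen with earlier results of these data known. Named in full were the TIMP genes, the 3 highest members of each class, and up to 4 called members of at least 1 TPM with the largest change each way per class and comparison. For pathway lists up to 3 called genes per comparison were named; Tgfb1 and the macrophage markers were chosen after their values were seen. Protein sequences were not used here.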

Additional observations from a re-analysis of the deposited data

How the results depend on the processing

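Counts of called members were stable under the other pseudocount, filters, trend and group choice, and moved by more than 1.5 times under these settings. For members lower in Ad-JP2 over Ad-GFP, where TPM as deposited gave 0, median-of-ratios scaling gave 1, quantile normalization 2, the GC content and length correction 7, and that correction with the replicate block 6. For members lower in Ad-shJP2 over Ad-GFP the correction with the replicate block gave 15, against 23. In Ad-JP2 over Ad-shJP2 the correction gave 14 higher and 16 lower members with or without the replicate block, and quantile normalization 14 lower, against 23 higher and 7 lower. Among the 40 tested members, the correction, with or without the replicate block, turned the sign of these values, each called before or after it: in Ad-JP2 over Ad-GFP Mmp12 (-0.25), Adam19 (-0.20), Adam17 (-0.18) and Adam23 (-0.33), in Ad-shJP2 over Ad-GFP Mmp12 (0.093), Adam23 (0.38) and Adamts6 (0.44), and in Ad-JP2 over Ad-shJP2 Mmp12 (-0.34), Adam17 (-0.044), Adamts2 (-0.26), Adam22 (-0.74), Adam23 (-0.71), Adamts6 (-0.39), Mmp8 (-0.35) and Mmp19 (-0.0056). Mmp8 in Ad-shJP2 over Ad-GFP (0.28) was called only by the correction without the block. Quantile normalization reversed Adamts10 (0.049 in Ad-shJP2 over Ad-GFP, -0.24 in Ad-JP2 over Ad-shJP2) and Adam23 (-0.23 in Ad-JP2 over Ad-shJP2). The cause was not tested.

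Libraries with the same replicate number did not deviate together (correlations of -0.113 to 0.11 between their deviations), so the numbers were not taken to pair libraries. The replicate block alone gave 9 higher and 0 lower members in Ad-JP2 over Ad-GFP, 8 and 23 in Ad-shJP2 over Ad-GFP, and 22 and 7 in Ad-JP2 over Ad-shJP2. Under the block Adam17 in Ad-JP2 over Ad-GFP had an adjusted p of 0.066, or 0.067 with the correction. Leaving out each library gave 7 to 11 higher and 0 to 0 lower members in Ad-JP2 over Ad-GFP, 7 to 8 and 21 to 23 in Ad-shJP2 over Ad-GFP, and 21 to 24 and 6 to 8 in Ad-JP2 over Ad-shJP2. The Ad-shJP2 libraries were the shallowest by the approximate depths, but most of their low values did not lie near whole reads, so this order is uncertain. A lower depth would limit members near 1 TPM, such as Adamts6 and Mmp28, most.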
